A study of Mus musculus with 18 samples.

Results

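The genes examined here encode the mitochondrial ribosome, the respiratory chain and the protein import machinery of mitochondria, all of them copied in the nucleus and translated in the cytosol. Members were taken from the authors' deposited table of called genes by symbol: Mrpl and Mrps (large and small subunit of the mitochondrial ribosome), Nduf (complex I and its assembly factors), Sdh, Uqcr, Cox followed by a digit, Atp5 (complexes II to V), Timm and Tomm (inner and outer membrane import). Names with -ps and entries with several names were left out. An entry is a single identifier of the table, here always an Ensembl transcript, and a gene can have several. The rule found 62 entries from 48 genes among 7315 entries that have a row between the groups used, or 0.848% of them. Of 210 protein-coding symbols that fit the same prefixes in GENCODE M21, 163 have no row in these comparisons, which does not show that they were unchanged. Another 4 entries carry a member symbol together with other names and were not used.

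The cells are RAW264.7, a mouse macrophage-like line, sampled in 6 groups of 3 samples each. Parental cells (RAW) were left without treatment or received doxycycline at 100 ng/mL. Construct cells (p2080) carry the lentiviral pINDUCER20-mCITED1 vector, in which doxycycline switches on murine CITED1, a transcriptional coregulator. They were left without treatment, received doxycycline, received interferon-gamma at 200 U/mL, or received both. The labels do not say whether the construct line is a clone or a pool, how long treatments lasted or whether samples came from separate cultures. Parental cells with interferon-gamma were not analysed here, so the interferon response is known only in construct cells.

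The table gives, for a pair of groups, a fold change of at least 2, the summed FPKM (fragments scaled by transcript length and library size) and a q-value under 0.05, with no value per sample. Values here thus carry neither SD nor n, their depth is unknown, and a call means a row in that table. From fold and sum the FPKM of each group was recovered, called a rebuilt FPKM. Cited1 itself stood at 0.703 rebuilt FPKM in untreated construct cells, 168 with doxycycline, 11.5 with interferon-gamma and 86.7 with both. It was thus also higher with interferon-gamma alone, and its 7.55-fold step with inducer in stimulated cells, in the authors' deposited table, was smaller than the 239-fold step without interferon-gamma. No row gives its level in parental cells. Among the 8 macrophage markers listed for a check of the cell type, Adgre1, Fcgr1 and Itgam have rows, and 0 markers of fibroblasts, T cells, B cells or epithelium do, which does not show that they are absent. Adgre1 stood at 12.2 rebuilt FPKM in untreated construct cells and at 7.10 with interferon-gamma alone, against 28.6 in untreated parental cells. The coding entry of Fcgr1, an Fc receptor gene, went the other way, from 14.1 to 87.5 rebuilt FPKM with interferon-gamma alone and from 15.5 to 274 with inducer present. Itgam, an integrin gene, went from 44 with doxycycline to 20 rebuilt FPKM with both treatments. The markers thus did not move together, and their part in the results was not tested. In bulk RNA, fewer cells of a kind and less RNA per cell cannot be told apart.

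Mitochondria make most cellular ATP through a chain of protein complexes in the inner membrane, whose subunits are encoded partly by mitochondrial DNA and mostly by nuclear genes. The few subunits encoded in the organelle are made on its own ribosome, while the rest enter through the TOM complex of the outer membrane and the TIM complexes of the inner membrane. Some forms of macrophage activation are known to shift energy metabolism away from respiration, which was not measured here. Tetracyclines such as doxycycline can inhibit the mitochondrial ribosome, which makes the inducer itself a matter of interest for these genes.

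All 253 member rows involved a group given interferon-gamma. None of the 62 entries had a row in any of the 6 pairs of unstimulated groups, where 8.20% of all listed entries had one. In the 8 pairs that set an interferon-gamma group against an unstimulated group, 57 entries from 43 genes were lower in each row they had and 5 entries from 5 genes were higher. These are 91.9% and 8.06% of the member entries, where 45.3% of all listed entries were lower and 50.8% higher in each such row. All 10 genes with several entries, such as Mrpl15 with 4 and Timm9 and Mrps17 with 3 each, had each of their entries lower. Of the 62 entries 17 have rows only in pairs with a parental group, among them those of Cox7a2l, Mrpl11, Mrpl37, Mrps11, Mrps22, Ndufa5 and Ndufv2. Such pairs combine the difference between the lines with that of the treatment.

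Interferon-gamma without inducer was compared with untreated construct cells. Of the member entries 15, from 11 genes, were lower and 3 were higher in the authors' deposited table. That is 24.2% lower and 4.84% higher, beside 21.5% and 24.4% of all listed entries. The share of lower entries was thus near that of all listed entries, and the share of higher entries was below it. With all listed entries rescaled to a median log2 ratio of 0, each log2 ratio was lowered by 0.65. Then 23 members, with or without a row, were at least 2-fold lower, so these are not counted like the 15 calls. Of the 26 members with both levels 23 were lower before the shift, and the shift took each of these past 2-fold. They include the 8 without a row described below. The 0.65 is a median over entries called in some comparison, not over all genes, so the 23 add nothing to the calls. Over all listed entries the same shift took the share of calls that were higher from 53.2% to 33.4%. With q limited to 0.01, 0 members were higher. Against parental cells without and with doxycycline, Cox4i2 in the same interferon group had the authors' Cuffdiff q of 3.9e-04. Those pairs also differ by line. The median log2 ratio of the 15 lower entries was -1.31, beside -1.48 for all lower entries. A further 8 entries had a level in both groups but no row, and all 8 were lower, by log2 ratios between -0.66 and -1.14. Most of their interferon-gamma levels come from rows that set this group below another unstimulated group. Their direction was thus largely fixed by that selection and adds nothing to the calls.

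Interferon-gamma with the inducer present was compared with doxycycline alone. Where no other group is named, these are the 2 comparisons meant by interferon-gamma alone and by inducer present. Here 36 entries from 30 genes were lower and 1 was higher in the authors' deposited table. These are 58.1% and 1.61% of the members, beside 30.1% and 33.8% of all listed entries. The median log2 ratio of the lower entries was -1.36, beside -1.58 for all lower entries, so the members' falls were moderate in size. The 2 interferon comparisons share no group, and 13 entries were lower in both, which is 86.7% of the 15 and 36.1% of the 36. Over all listed entries 1220 were lower in both, or 77.6% and 55.4%.

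The other pairs of an interferon-gamma group with an unstimulated group went the same way, though they share groups with these and with each other. Against untreated parental cells, interferon-gamma alone had 26 members (41.9%) lower and 4 (6.45%) higher, beside 23% and 25.3% of all listed entries. Both treatments had 45 (72.6%) lower and 3 (4.84%) higher against the same cells, beside 30.9% and 34.5%. Against parental cells with doxycycline, the counts were 20 (32.3%) lower and 3 (4.84%) higher for interferon-gamma alone, beside 23.4% and 24.6%. For both treatments they were 38 (61.3%) lower and 3 (4.84%) higher, beside 30.3% and 33.3%. Both treatments against untreated construct cells gave 38 (61.3%) lower and 1 (1.61%) higher, beside 30.2% and 34.1%. Interferon-gamma alone against construct cells with doxycycline gave 14 (22.6%) lower and 1 (1.61%) higher, beside 21.9% and 24.3%. In this last pair the share of lower members was near that of all listed entries. In each of the 8 pairs, more members were lower than higher, while the shares of all listed entries lower and higher lay close together.

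**Figure D1:**
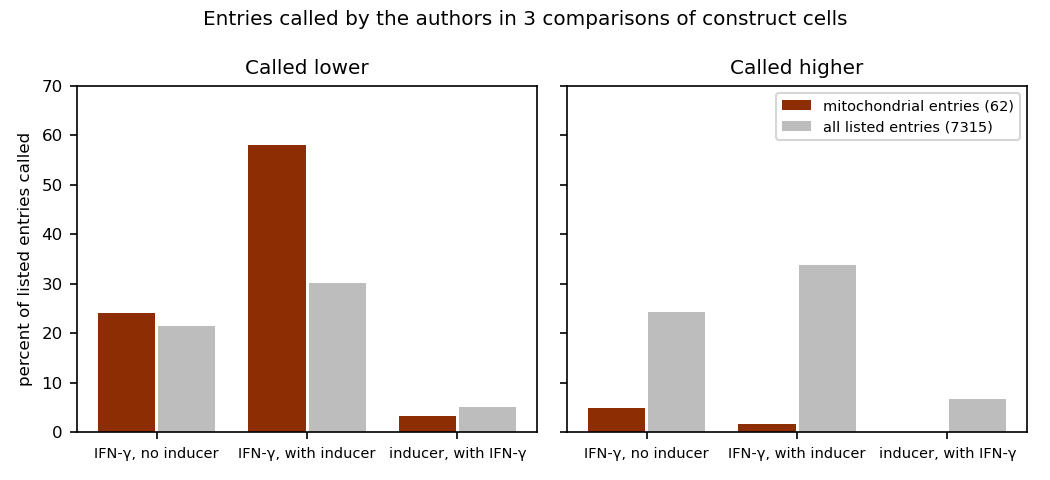
Bars give the percent of entries called lower (left) or higher (right) in 3 comparisons of construct cells, for the 62 mitochondrial entries and all 7315 listed entries. With inducer present, 58.1% of the mitochondrial entries were lower with interferon-gamma, beside 30.1% of all listed entries.

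Timm9, an import gene, had the largest member fall in both interferon comparisons. It encodes a small chaperone of the intermembrane space that guides hydrophobic carrier proteins to the inner membrane. Its first entry (ENSMUST00000021486, chr12:71123173-71136673, minus strand, GRCm38) stood at 13.0 and 12.3 rebuilt FPKM in parental cells without and with doxycycline. In construct cells it stood at 11.6 without treatment, 11.7 with doxycycline, 2.75 with interferon-gamma and 2.26 with both. The 4 unstimulated groups thus lay close together and both interferon groups far below. It was 4.22-fold lower with interferon-gamma alone (q = 0.0066) and 5.16-fold lower with inducer present (q = 3.9e-04) in the authors' deposited table. In the authors' deposited table a second entry, ENSMUST00000221559, was lower by 3.84-fold without inducer and by 4.59-fold with it. The third, ENSMUST00000221815, had the largest member fold with inducer present, 8.18-fold in the authors' deposited table, from 2.17 to 0.266 rebuilt FPKM.

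Timm10, the partner of Timm9 in the chaperone complex, went from 34.4 with doxycycline to 16.5 rebuilt FPKM with both treatments, 2.08-fold lower in the authors' deposited table. Timm8a1, another small chaperone of the same space, went from 12.3 with doxycycline to 4.17 rebuilt FPKM with both treatments. Its level with interferon-gamma alone was 6.22 rebuilt FPKM, with no row against untreated construct cells. Timm21, a subunit of the presequence translocase, went from 7.06 to 3.04 rebuilt FPKM with interferon-gamma alone and from 6.43 to 2.22 with inducer present. All 6 entries of the 4 Timm genes listed were lower with inducer present, and 3 were without it. Of all listed entries 30.1% and 21.5% were lower in these comparisons.

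Of the outer membrane genes, Tomm5, a small subunit of the TOM pore, has 2 entries. The larger (ENSMUST00000107810) stood at 104 and 103 rebuilt FPKM in parental cells without and with doxycycline, at 89.0 and 84.8 in unstimulated construct cells without and with it, and at 42.4 and 43.8 in the interferon groups without and with it. In the authors' deposited table it was 2.10-fold lower with interferon-gamma alone, while the pair with inducer present has no row. Tomm20, a receptor for presequences, was 2-fold lower with inducer present in the authors' deposited table, at the limit of the table. Tomm40l, a paralog of the pore protein gene, has a row only against untreated parental cells, from 11.9 to 5.79 rebuilt FPKM with both treatments.

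Of the large subunit of the mitochondrial ribosome, 12 of the 49 coding symbols had rows, in 16 entries. With interferon-gamma alone 6 entries of 4 genes were lower, with inducer present 11 entries of 9 genes, and 0 were higher in either. Beside these, 21.5% and 30.1% of all listed entries were lower, and 24.4% and 33.8% higher. Counts by class are small and were not tested. Mrpl36 (ENSMUST00000221730, chr13:73328513-73331736, plus strand, GRCm38) stood at 43.8 and 42.8 rebuilt FPKM in parental cells without and with doxycycline. It stood at 45.0 and 45.7 in unstimulated construct cells without and with it, and at 17.2 and 14.0 with interferon-gamma without and with it. Its second entry, ENSMUST00000222030, went from 20.0 to 8.09 rebuilt FPKM with interferon-gamma alone and from 21.5 to 9.16 with inducer present. Both Mrpl36 entries thus fell by more than the table's limit in both comparisons.

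Mrpl50 went from 21.1 to 7.85 rebuilt FPKM with interferon-gamma alone and from 20.4 to 7.22 with inducer present. Mrpl34, among the most abundant large-subunit genes listed, stood at 109 and 96.8 rebuilt FPKM in parental cells without and with doxycycline. It stood at 97.8 and 99.1 in unstimulated construct cells without and with it, and at 44.8 and 38.1 in the interferon groups without and with it. Mrpl15 has 4 entries, of which ENSMUST00000146665 was 3.19-fold lower with interferon-gamma alone and ENSMUST00000130201 was 3.02-fold lower with inducer present in the authors' deposited table. Mrpl12, Mrpl42, Mrpl2, Mrpl23 and Mrpl57 were lower with inducer present and have no row for interferon-gamma alone against untreated construct cells. Against untreated parental cells, interferon-gamma alone had Mrpl12 2.07-fold and Mrpl42 2.17-fold lower in the authors' deposited table. Mrpl12, whose protein also binds the mitochondrial RNA polymerase, went from 68.0 with doxycycline to 26.8 rebuilt FPKM with both treatments, and stood at 38.9 with interferon-gamma alone.

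Of the small subunit, 8 of 29 coding symbols had rows. Of its 11 entries none was called with interferon-gamma alone against untreated construct cells, and 5, from 4 genes, were lower with inducer present. The shares of all listed entries that were lower were 21.5% and 30.1%. Mrps35 went from 8.83 with doxycycline to 2.27 rebuilt FPKM with both treatments, 3.90-fold lower in the authors' deposited table. Mrps31 stood at 10.2 rebuilt FPKM in untreated construct cells, 10.8 with doxycycline, 5.18 with interferon-gamma and 3.73 with both. Its step with interferon-gamma alone fell short of the table's fold limit. Mrps28 and both entries of Mrps5 were the other lower ones, with Mrps28 at 45.0 with doxycycline and 21.9 rebuilt FPKM with both treatments. Mrps11, Mrps17, Mrps22 and Mrps24 have rows only in other pairs of groups.

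Complex I, the NADH dehydrogenase, had 9 genes with rows under a structural subunit symbol and 3 under an assembly factor symbol. Ndufs8, an iron-sulfur subunit, went from 18.6 to 7.78 rebuilt FPKM with interferon-gamma alone and from 16.7 to 7.65 with inducer present. Ndufb3, an accessory subunit, went from 84.1 to 40.8 and from 74.0 to 35.5 rebuilt FPKM in the same comparisons. Ndufa12 was 2.01-fold lower with inducer present in the authors' deposited table. Ndufa5, Ndufab1, Ndufb4 and Ndufv2 were lower in rows with a parental group only.

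Ndufaf4, an assembly factor of complex I, has 2 entries. Its coding entry (ENSMUST00000029925, chr4:24898083-24905001, plus strand, GRCm38) stood at 5.98 and 6.61 rebuilt FPKM in parental cells without and with doxycycline, and at 5.08 and 5.16 in unstimulated construct cells. It stood at 1.82 with interferon-gamma and 1.35 with both. The authors' deposited table gives it as 2.79-fold lower without inducer and 3.81-fold lower with it. The other entry, ENSMUST00000146721, annotated as a processed transcript with no coding sequence, went from 6.26 to 2.27 with interferon-gamma alone and from 6.43 to 0.971 rebuilt FPKM with inducer present. The labels do not say how fragments were divided between the entries of a gene, which makes the value of a single entry uncertain. The assembly factor genes Ndufaf6 and Ndufaf7 were lower with inducer present, Ndufaf6 2.45-fold and Ndufaf7 2.25-fold in the authors' deposited table.

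The genes of the catalytic subunits of complex II have no row. The assembly factor Sdhaf1 went from 8.13 with doxycycline to 2.34 rebuilt FPKM with both treatments and stood at 5.35 with interferon-gamma alone. Sdhaf3 was 2.64-fold lower with inducer present in the authors' deposited table, at levels below 1 FPKM. None of the 8 Uqcr symbols of complex III has a row. Of the ATP synthase, Atp5g1 and Atp5g2 encode identical mature c subunits of the rotor ring. Atp5g2 was among the most abundant members, at 258 with doxycycline and 121 rebuilt FPKM with both treatments. The Atp5g1 entry ENSMUST00000090541 went from 4.71 to 1.95 rebuilt FPKM with interferon-gamma alone and from 4.61 to 1.86 with inducer present. The gene's other entry, ENSMUST00000107684, was far more abundant and has rows only against untreated parental cells. It stood there at 184 rebuilt FPKM, and at 85.2 and 90.6 in the interferon groups without and with doxycycline.

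Genes with a Cox symbol, named for cytochrome c oxidase (complex IV), went both ways. The lower ones, Cox10 and Cox16, do not encode subunits of the enzyme. Cox4i2 (ENSMUST00000010020, chr2:152754173-152765037, plus strand, GRCm38) encodes the alternative isoform of subunit IV, known from lung and from cells short of oxygen. It stood at 0.859 and 1.10 rebuilt FPKM in parental cells without and with doxycycline and at 0.740 and 1.46 in unstimulated construct cells without and with it. With interferon-gamma it stood at 16.7, and with both treatments at 9.27. The 2 interferon groups lay far above the 4 others. It was 22.5-fold higher with interferon-gamma alone (q = 0.045) and 6.37-fold higher with inducer present (q = 3.9e-04) in the authors' deposited table. Cox4i1, the usual isoform, has no row.

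The other entries that were higher were of several kinds. Cox7a2l, a factor of respiratory supercomplexes, stood at 306 rebuilt FPKM with interferon-gamma alone, against 139 and 132 in parental cells without and with doxycycline, and has no row within construct cells. The Cox17 entry ENSMUST00000120495, of a copper chaperone, went from 1.06 to 2.5 rebuilt FPKM with interferon-gamma alone. The Ndufs4 entry ENSMUST00000225035, which went from 3.97 to 19.1 rebuilt FPKM, is annotated as subject to nonsense-mediated decay. The entry the table names Ndufb1 is annotated as a bidirectional promoter lncRNA named Ndufb1-ps in GENCODE M21. Whether it encodes a complex I subunit is thus not settled here. Cox10, needed to make heme A, and Cox16, an assembly factor, were lower with inducer present, the former 2.24-fold and the latter 3.02-fold in the authors' deposited table.

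**Figure D2:**
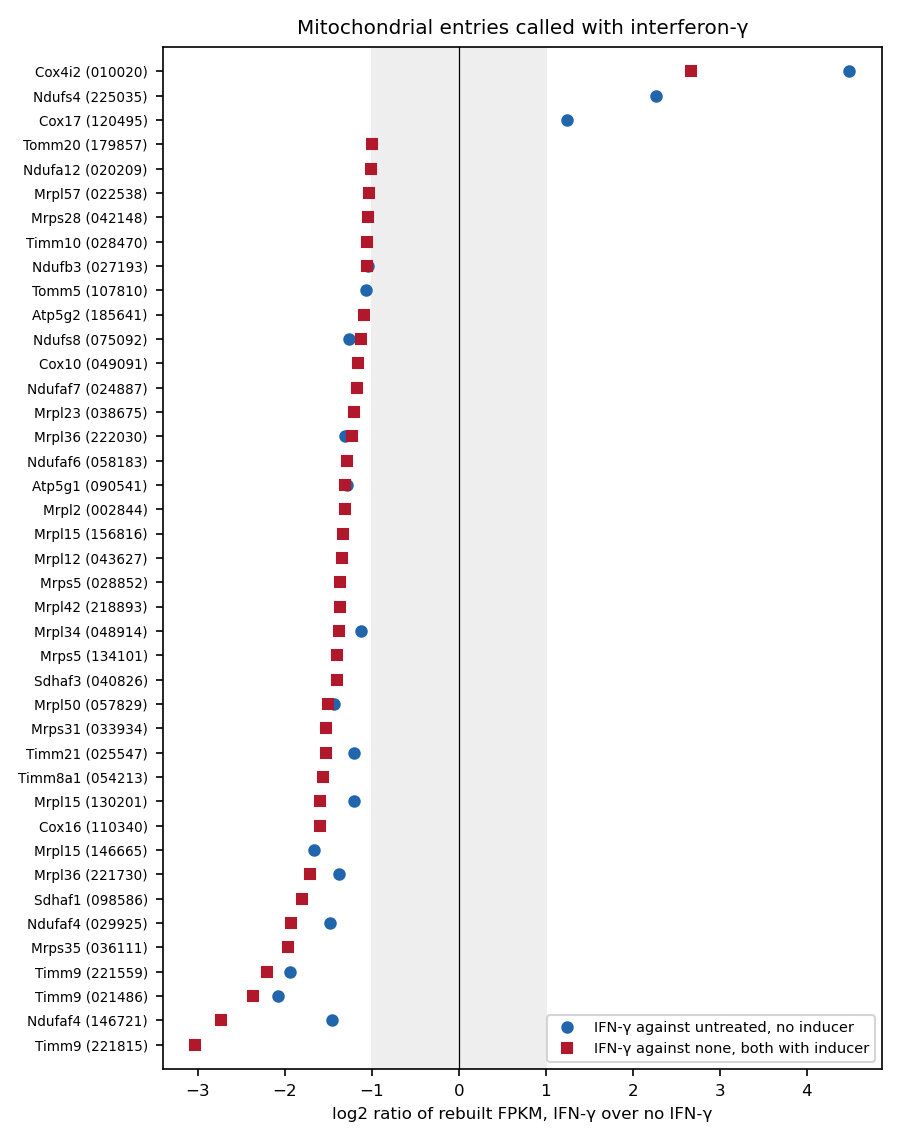
Points give the log2 ratio of rebuilt FPKM, interferon-gamma over no interferon-gamma, for each mitochondrial entry called without inducer (circles) or with inducer (squares), with the last 6 digits of its identifier. Grey marks less than 2-fold, which the table leaves out, and only Cox4i2, Ndufs4 and Cox17 lie on the right.

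**Figure D3:**
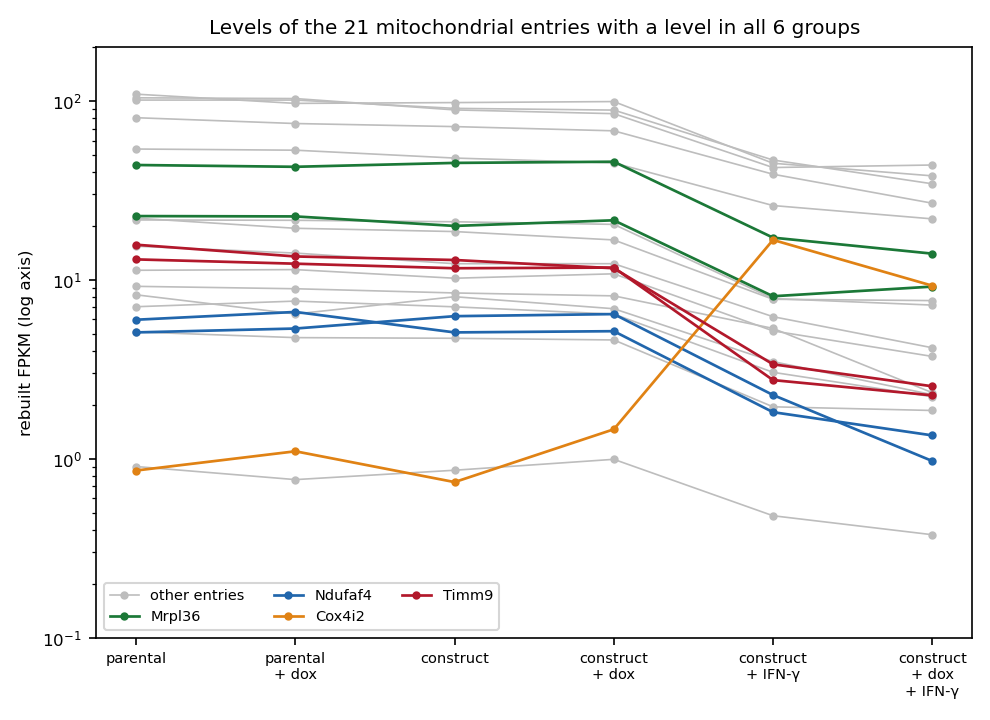
Lines join the rebuilt FPKM (log axis) of each of the 21 entries that have a level in all 6 groups, with no error since the table gives none. The entries of Timm9, Ndufaf4 and Mrpl36 stay level over the unstimulated groups and are lower in both interferon groups, while Cox4i2 rises from 0.740 to 16.7 with interferon-gamma alone.

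The inducer in interferon-gamma-stimulated construct cells was compared directly, both treatments against interferon-gamma alone. These groups differ in doxycycline as well as in CITED1. Parental cells with interferon-gamma were not analysed here, so doxycycline and CITED1 cannot be told apart in stimulated cells. Only the Ndufaf4 entry ENSMUST00000146721, from 2.27 to 0.971 rebuilt FPKM (q = 0.032), and Sdhaf1, from 5.35 to 2.34 (q = 3.9e-04), were called, both lower. The authors' deposited table gives folds of 2.34 and 2.29. With q limited to 0.01, or with coding entries alone, 1 member was lower. These are 3.23% of the members, beside 5.21% of all listed entries lower, and 0 members were higher, beside 6.75%. The larger count of lower members with inducer present is thus not matched by many calls between the 2 stimulated groups themselves.

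Levels in both stimulated groups could be rebuilt for 26 member entries. Of these 21 were lower and 5 higher with both treatments, with a median log2 ratio of -0.33. The 4333 listed entries with both levels had a median of 0.08, and 45.0% of them were lower. Without the 2 called entries, the log2 ratios of the members ranged from -0.84 for Mrps17 and Cox4i2 to 0.18 for an Mrpl36 entry. These ratios were not tested, since the table has no value per sample. Entries with both levels are only those the authors called in some comparison of each stimulated group.

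**Figure D4:**
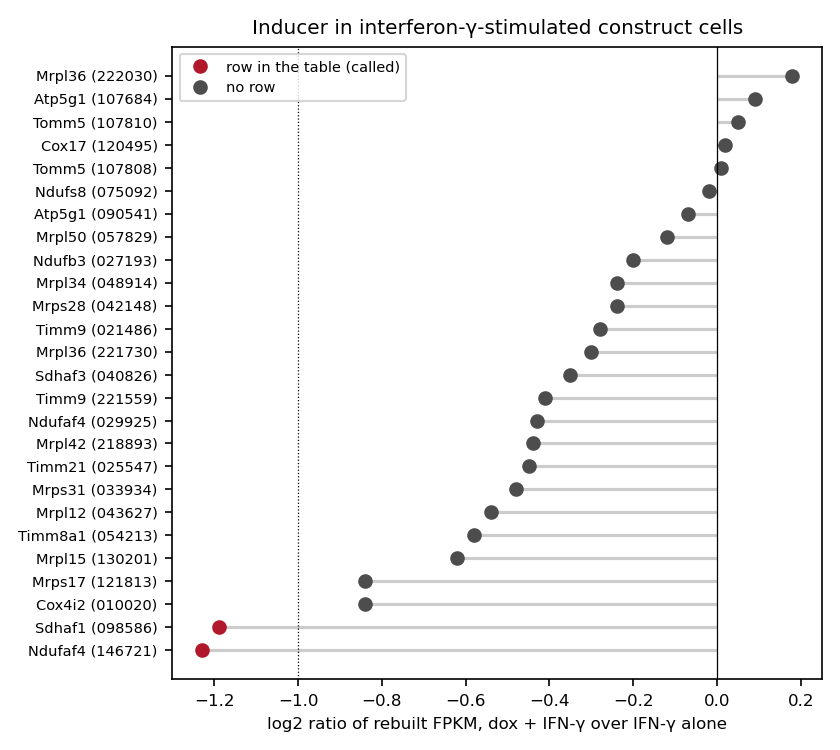
Points give the log2 ratio of rebuilt FPKM, both treatments over interferon-gamma alone, for the 26 member entries with both levels. The dotted line marks 2-fold lower, and only Sdhaf1 and an Ndufaf4 entry, which have rows, lie beyond it.

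The inducer without interferon-gamma left no member called. In construct cells 0 member entries were higher or lower with doxycycline by the authors' Cuffdiff calls, beside 0.164% and 0.178% of all listed entries. Levels in both groups were known for 35 entries, whose median log2 ratio was -0.01. All but 1 lay within 0.5 of 0, and the exception was Cox4i2, at 0.740 and 1.46 rebuilt FPKM without and with doxycycline, a log2 ratio of 0.98. In parental cells doxycycline likewise left 0 members called, beside 0.082% higher and 0.588% lower. The 42 entries with both levels had a median log2 ratio of -0.04 and ranged from -0.36 for Mrpl15 to 0.36 for Cox4i2. The unadjusted p-values and any calls by another tool were not analysed here, so the number of entries with a smaller difference is not known.

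No member was called between the 2 lines without interferon-gamma. Construct cells without inducer had 0 members called against untreated parental cells, beside 1.45% higher and 2.23% lower of all listed entries. With doxycycline in both lines the count was also 0, beside 2.02% and 2.67%. The pairs with doxycycline in a single line had 0 as well, beside 2.24% higher and 3.29% lower with it in construct cells and 1.48% higher and 2% lower with it in parental cells. Rebuilt levels were known in both lines for 38 entries without inducer, with a median log2 ratio of -0.14, and for 32 with it, with a median of -0.07. The medians over all listed entries were -0.03 in both cases.

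The RefSeq promoter windows of the members (GRCm38.p6, 250 bases before to 50 after a gene's start) were searched on both strands for motifs that include those of factors known for mitochondrial genes. Windows were found for 40 of the 48 genes, 44 windows in all. The set called all windows holds 32851 from 27025 genes. It was not matched to the members in gene type or base content, so it is a loose yardstick. The NRF1 motif, GCGCA and GCGC with any single base between them, was in 20.5% of them, in 18.9% of windows of member symbols without a row and in 4.60% of all windows. The core of ETS factors, CCGGAAG, was in 22.7%, in 36.5% of windows of symbols without a row and in 8.86% of all windows. The YY1 motif AAGATGGCG was in 15.9%, 7.43% and 1.40%. Windows of 4 genes that were lower with interferon-gamma are printed with their matches to these motifs in capitals, to show where such matches lie, and were chosen after their values were seen.
Ndufaf4, chr4:24897833-24898132, plus strand: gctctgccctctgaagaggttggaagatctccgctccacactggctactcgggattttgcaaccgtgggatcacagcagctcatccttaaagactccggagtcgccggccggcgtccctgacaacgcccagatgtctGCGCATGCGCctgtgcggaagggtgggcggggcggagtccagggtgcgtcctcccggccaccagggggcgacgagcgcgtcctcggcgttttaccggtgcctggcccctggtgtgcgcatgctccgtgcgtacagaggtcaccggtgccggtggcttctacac
Mrpl12, chr11:120484387-120484686, plus strand: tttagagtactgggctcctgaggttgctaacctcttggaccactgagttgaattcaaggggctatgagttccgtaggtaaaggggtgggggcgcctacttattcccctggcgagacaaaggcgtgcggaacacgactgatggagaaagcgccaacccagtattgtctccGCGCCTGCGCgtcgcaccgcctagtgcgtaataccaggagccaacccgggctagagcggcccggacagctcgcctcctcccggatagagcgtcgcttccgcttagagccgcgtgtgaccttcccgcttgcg
Timm10, chr2:84826771-84827070, plus strand: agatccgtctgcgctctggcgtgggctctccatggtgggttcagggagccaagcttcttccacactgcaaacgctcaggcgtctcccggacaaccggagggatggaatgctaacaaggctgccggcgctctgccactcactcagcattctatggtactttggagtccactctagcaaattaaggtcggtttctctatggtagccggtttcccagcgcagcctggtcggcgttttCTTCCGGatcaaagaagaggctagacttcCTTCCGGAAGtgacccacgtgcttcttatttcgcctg
Mrpl36, chr13:73330759-73331058, plus strand: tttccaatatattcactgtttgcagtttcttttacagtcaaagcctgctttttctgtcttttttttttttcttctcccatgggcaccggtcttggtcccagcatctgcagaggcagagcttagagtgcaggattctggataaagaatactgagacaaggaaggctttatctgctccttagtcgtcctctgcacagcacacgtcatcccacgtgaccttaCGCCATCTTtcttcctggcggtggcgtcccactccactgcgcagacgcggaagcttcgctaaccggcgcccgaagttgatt
The capitals mark the NRF1 motif in Ndufaf4 and, on the reverse strand, in Mrpl12. In Timm10 they mark the ETS core, on the reverse strand in the first run and as overlapping matches on both strands in the second. In Mrpl36 they mark the YY1 motif on the reverse strand. The Mrpl36 window lies at the start of the entry ENSMUST00000222030, downstream of that of ENSMUST00000221730. The Timm9 window holds none of these motifs. A match is only a description of these letters.

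Other genes of mitochondrial function were taken from lists of known genes. For all these lists, the shares of all listed entries were 21.5% lower and 24.4% higher without inducer, and 30.1% and 33.8% with it. The lists are counted by gene and include genes without a row, so such shares are a rough yardstick only. No list was tested, and its counts alone do not set it apart from other genes. Of 20 genes of the TCA cycle and pyruvate entry 6 have rows, and 3 were lower without inducer and 6 with it, with 0 higher. Idh2, the mitochondrial NADP-dependent isocitrate dehydrogenase, went from 65.5 to 16.7 rebuilt FPKM with interferon-gamma alone and from 68.5 to 5.84 with inducer present. The authors' deposited table also has it 2.85-fold lower with both treatments than with interferon-gamma alone. Suclg2, a subunit of succinyl-CoA synthetase, was also lower in both interferon comparisons.

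Mitochondrial DNA maintenance and transcription had 14 of 24 genes with rows, 5 lower and 0 higher without inducer, 11 lower and 1 higher with it. The helicase gene Twnk went from 5.13 to 1.27 and from 5.19 to 0.579 rebuilt FPKM. Slirp, the gene that was higher, went from 7.77 to 15.8 rebuilt FPKM. Translation factors and tRNA synthetases had 18 of 40 genes with rows, 7 lower, 0 higher and 1, Lars2, with entries in both directions without inducer. With inducer 15 were lower and 0 higher, among them Mars2, from 2.05 to 0.441, and Guf1, from 10.0 to 2.27 rebuilt FPKM.

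Import motors and chaperones outside the member symbols had 10 of 24 genes with rows, 2 lower without inducer and 6 with it, and 0 higher. The chaperonin gene Hspd1 went from 258 with doxycycline to 79.5 rebuilt FPKM with both treatments. Of mitochondrial proteases and prohibitins 0 of 12 were called without inducer and 3 were lower with it. Assembly factors outside the member symbols went both ways, with 2 higher and 2 lower without inducer and 2 higher and 3 lower with it. Coa5 and Sco1, both of complex IV, were higher, with Coa5 from 37.5 to 133 rebuilt FPKM with interferon-gamma alone and Sco1 (ENSMUST00000092996) from 6.27 to 21.5. Bcs1l (ENSMUST00000113733), which inserts the iron-sulfur protein into complex III, was lower, from 7.15 to 3.27 with interferon-gamma alone and from 5.84 to 1.12 rebuilt FPKM with inducer present.

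The remaining lists did not share a direction. Mitophagy genes had 2 higher and 0 lower without inducer and 3 higher and 0 lower with it, of 10, with the receptor gene Fundc1 from 19.9 to 44.6 and from 19.8 to 49.7 rebuilt FPKM. Of 27 glycolysis genes 3 were higher and 0 lower without inducer, including the hexokinase gene Hk1 and the glucose transporter gene Slc2a1. With it 1 was higher, Pdk3, from 20.9 to 74.9 rebuilt FPKM. The 3 that were lower with it were Pdk1, Pdk2, from 1.28 to 0.342, and Slc16a1, from 59 to 25.1 rebuilt FPKM. Of 19 genes of fatty acid oxidation 2 were higher and 0 lower without inducer, and 2 higher and 3 lower with it. Of 65 cytosolic ribosomal protein genes 0 were called in either comparison, and 63 of them have no row in any pair. Of 16 genes of fission, fusion and cristae 0 were called without inducer and 1, Apool, was higher with it. Among 18 regulators of mitochondrial gene expression 1 was higher and 1 lower without inducer, and 1 higher and 3 lower with it. The NRF1 gene Nrf1 went from 4.18 with doxycycline to 0.954 rebuilt FPKM with both treatments, and Ppard was higher in both interferon comparisons.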

How the data were processed

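RNA of 18 samples was made into strand-specific poly(A) libraries, per the labels' protocols. Cuffdiff 2.2.1, STAR 2.5.3a, FastQC 0.11.5, edgeR and featureCounts appear, with no roles, in the submitters' processing notes. The authors' genome build is not given in the sources used here. Per the file headers, the deposited table gives a linear fold change (a ratio), a summed FPKM of the 2 groups by the authors, and a deposited q-value, a p-value adjusted by the authors over an unstated set of tests. It has 112230 rows, of which 77406 name groups outside the samples used here and were left out. Its smallest fold is 2, its largest q 0.0499, and 177 of the 253 member rows carry its smallest q of 3.9e-04. Depth per sample is not known from it.

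Dividing the sum by 1 plus the fold gave the level of the lower group, and multiplying this by the fold gave that of the higher group. A group's level is the median over its rows, and repeated member levels of at least 1 FPKM differed by at most 0.305%. Rebuilding was tested on simulated data. Calls rest on the authors' own q (0.05 or less). No further test was made. Entries were matched by transcript identifier to GENCODE M21 (62 of 62 found, 61 under the same symbol), whose coordinates are printed. Of the entries 56 are annotated as protein coding. Named are, per member class, up to 4 called entries with the largest change, those against their class, and all entries where a comparison has few, with further members for their roles. Context lists name their most changed genes. Members and lists were chosen with earlier results of these data known. Percentages of all listed entries use the 7315 entries as denominator, since the number tested by the authors is unknown. Promoters were also searched for 1 other motif, which is not reported here. Python 3.11.15, pandas 2.3.3 and numpy 2.4.6 were used. Counts were repeated with q limited to 0.01, with at least 1 FPKM in the higher group, with 1 FPKM added as a pseudocount and a 1.5-fold limit, after rescaling, by gene, and for coding entries alone.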

Additional observations from a re-analysis of the deposited data

How the results depend on the processing

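With a q of 0.01 or less, 0 members were higher with interferon-gamma without inducer in place of 3, since Cox4i2, Ndufs4 and Cox17 all had a larger q, and 1 in place of 2 was lower with inducer in stimulated cells, Sdhaf1. With coding entries alone that count was also 1, as the called Ndufaf4 entry is not annotated as coding. After rescaling all listed entries of at least 1 FPKM to a median log2 ratio of 0, which shifted interferon-gamma without inducer by 0.65 and with inducer by 1.02, 23 members were lower without inducer in place of 15. Rescaling counts entries at least 2-fold apart after the shift, with or without a row. The shift is a median over listed entries only, so it is not a normalization over all genes. Over all entries it changed the share of calls that were higher from 53.2% to 33.4% without inducer, from 52.9% to 29.8% with it, from 56.5% to 45.6% for inducer in stimulated cells, from 48.0% to 63.6% for inducer in unstimulated construct cells and from 12.2% to 23.5% in parental cells. The other counts of members under each alternative lay within 1.5 times the reported value, and those of 0 stayed 0. Leaving out single replicates was not run because the table has no values per sample. No paired analysis was possible because the table has no values per sample. The member folds nearest the table's limit of 2 were those of Tomm20, Ndufa12 and Mrpl57 with inducer (2, 2.01 and 2.04 in the authors' deposited table).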

Other observations

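Genes encoded in mitochondrial DNA, picked after the data were examined, have rows for 7 genes and did not move together. With interferon-gamma alone mt-Cytb went from 688 to 237 rebuilt FPKM and mt-Nd2 from 510 to 253, and both were called lower. The ribosomal RNA gene mt-Rnr1 was called higher with inducer present, from 147 to 319 rebuilt FPKM, and mt-Rnr2 was called higher with both treatments than with interferon-gamma alone, at 102 and 49.2. The other coding genes have rows only against untreated parental cells. There mt-Nd4 stood at 143 and mt-Nd5 at 180 rebuilt FPKM, and with both treatments at 335 and 383. Going the other way, mt-Nd3 stood at 15.5 in those parental cells, 3.04 with interferon-gamma alone and 4.04 with both. The libraries were selected for poly(A), and mt-Nd2 stood at 339 and 577 rebuilt FPKM in parental cells without and with doxycycline, with no row for that pair.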
